A study of Mus musculus with 18 samples.

Results

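The Zfp genes described here are the zinc finger protein genes whose mouse symbol begins with Zfp and a digit and whose median log2 signal over 18 arrays was at least 4. The rule found 195 genes, each measured by 1 probe set, out of 304 Zfp genes and 15780 genes with a symbol on the array. It used the measured level, so the levels are a description. The level rule kept 64.1% of the Zfp genes and would keep 55.1% of the other genes with a symbol. Just inside the threshold lay Zfp784 (median 4.003), Zfp28 (4.08) and Zfp827 (4.12), and just outside it Zfp975 (3.99), Zfp870 (3.97) and Zfp712 (3.95).

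A zinc finger of this kind is a short fold held by a zinc ion, and a protein with a row of such fingers reads DNA, or less often RNA, one stretch of bases after another. Many Zfp genes also encode a KRAB domain, which recruits the corepressor Trim28 and the histone methyltransferase Setdb1 to silence retroelements and imprinted genes, and such genes lie in clusters of copies that differ between species. Other members are single genes with broad roles in transcription, RNA decay and ribosome function, and several are known for high expression in spermatocytes or spermatids.

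RNA came from 7 groups of male mice. Sorted pre-mid-pachytene spermatocytes, isolated by fluorescence-activated sorting at 2 months of age, came from t12+/+T43 males (3 samples, called t12) and from Ttf+/+T43H males (3 samples, called Ttf), both on the C57BL/10J background and called carriers here. Sorted mid-late pachytene cells (2 samples, called late cells) and sorted pre-mid-pachytene cells (2 samples, called pre cells) came from fertile C57BL/10J males. Whole testes without the tunica, taken at 15 days, came from t12+/+T43 males (3), from Ttf+/+T43H males (3) and from C57BL/6J males (2). Both carriers hold the same translocation between chromosomes 16 and 17, written T43 in t12 and T43H in Ttf males. The t12 allele is a t haplotype of proximal chromosome 17, and no group carries the translocation without t12 or Ttf. In the testes, carriers and controls also differ in strain background, and the effects of background and genotype there cannot be told apart. The series title names unsynapsed autosomal chromatin in meiosis as the subject.

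Values are log2 signals after GCRMA normalization by the authors. A gene counted as called when limma's adjusted p, by the Benjamini-Hochberg method over all genes tested in the same fit, was under 0.05, and ± gives the standard error (SE) of a difference. In sorted cells 193 of the 195 genes passed the filter on low values (Zfp959 and Zfp825 did not), and in testes 186 did. Zfp474, Zfp628, Zfp646 and Zfp691 were among the 9 genes below the filter in testes. The submitters call the replicates biological.

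Several properties of the arrays bear on the sorted groups. Correlations between replicates over the Zfp genes were at least 0.995 in testes and 0.986 or more in the C57BL/10J sorted groups, but 0.884 and 0.916 for the pairs that include Ttf sorted replicate 2, and 0.933 and 0.949 for those that include t12 sorted replicate 2. The 4 meiotic markers on the array, Sycp1 and Sycp3 among them, averaged 13.27 in t12, 13.09 in Ttf, 9.98 in late and 13.18 in pre cells. All 4 had a mean of at least 4 in t12, Ttf and pre cells, and 3 in late cells. There Dmc1 was at 3.54, against 11.84 in pre cells. The 7 markers of mid-late pachytene averaged 8.84 in t12, 10.64 in Ttf, 13.22 in late and 11.32 in pre cells. The 8 markers of spermatids, protamines among them, averaged 5.62 in t12, 10.08 in Ttf, 8.90 in late and 11.59 in pre cells, so spermatid markers were lower in t12 than in pre cells. Leydig markers averaged 8.92 in t12, 7.40 in Ttf, 3.48 in late and 4.90 in pre cells, and Sertoli markers 6.63, 6.01, 3.56 and 5.19 in the same order. The 4 markers of spermatogonia on the array averaged 6.91 in t12, 7.21 in Ttf, 3.32 in late and 6.37 in pre cells, and among the Ttf arrays replicate 2 stood at 9.02, against 6.46 and 6.15 in the other two. The part of these marker levels in the differences below was not tested. In such bulk samples, fewer cells of a type and less RNA per cell cannot be told apart.

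Signals of different probe sets are not comparable as amounts of RNA, so the order of levels that follows is one of signals. The median of the members' medians was 7.14, and 17 members (8.72%) had a median of at least 10, against 26.3% of the other genes with a median of at least 4. The highest median signals were those of Zfp711 (11.71), an X-linked relative of the transcription factor Zfx, Zfp518a (11.46), Zfp207 (11.34), which binds spindle microtubules, Zfp384 (11.33) and Zfp451 (10.98), a SUMO ligase. By group means, 67 members (34.4%) were highest in the late cells, 46 (23.6%) in t12 testes and 38 (19.5%) in t12 sorted cells. Of the other genes with a median of at least 4, the shares were 30%, 18.6% and 15%. In the late cells 62 members (31.8%) were lowest, against 39.7% of those other genes. The median distance between a member's highest and lowest group means was 2.58, close to the 2.65 of the other genes.

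By position, chromosome 7 held 39 of the members (20% of them) and chromosome 17 held 25. Of those 25, 22 lay on proximal chromosome 17, taken here as the genes before Pgk2, where 13 of them stood in a near-continuous run from Zfp160 to Zfp40 with at most 2 named genes between neighbours. A further 6 were grouped from Zfp472 to Zfp414. The 3 members of distal chromosome 17 were Zfp119b, Zfp318 and Zfp959, those of chromosome 16 were Zfp148, Zfp263, Zfp597 and Zfp654, and those of the X were Zfp182, Zfp185, Zfp275, Zfp280c, Zfp449 and Zfp711. Genes of such clusters can share near-identical sequence, and their separate levels on a probe array are uncertain to that degree.

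Much of the family differed between late and pre cells of C57BL/10J mice. Markers of spermatogonia were also lower in late cells, with Stra8 at 2.03 in late and 9.78 in pre cells. Probe sets for the 3' and 5' ends of actin differed by 3.44 in late and 2.50 in pre cells. For Gapdh the values were 2.95 and 2.90. The part of these levels in the differences between late and pre cells was not tested. Of 193 genes tested, 64 were higher and 38 lower in late cells, while 26.2% of all genes tested were called higher and 30.3% lower. Thus 33.2% of the Zfp genes rose and 19.7% fell. The median log2 difference was 0.23 over the Zfp genes and -0.11 over all genes tested. With quantile normalization these medians were 0.59 and 0.04, so the sign of the median over all genes depended on the scaling and that over the Zfp genes did not. Among the genes that rose, 38 differed by more than 4-fold, and 9 had a mean under 4 in the pre cells. Genes among these 9 can have passed the filter through the late arrays alone, as Zfp952 below did.

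Zfp93 on chromosome 7 had the highest rise, with values of 10.92 and 10.77 in late cells against 6.07 and 5.02 in pre cells (log2 difference 5.30 ± 0.55 SE, adjusted p = 5.55e-05). Zfp59, a gene known for its expression in mouse testis, stood at 10.35 and 10.36 in late cells and 4.84 and 5.41 in pre cells (log2 difference 5.23 ± 0.43 SE, adjusted p = 1.61e-05). Zfp748 reached 11.40 and 11.46 in late cells, against 6.29 and 6.72 in pre cells (log2 difference 4.93 ± 0.46 SE, adjusted p = 3.04e-05). In each of these genes both late arrays lay far above both pre arrays. The other rises in the top 10 had log2 differences of 4.61 for Zfp51, 4.46 for Zfp955b, 4.16 for Zfp952, 4.11 for Zfp677, 4.01 for Zfp688, 3.97 for Zfp54 and 3.92 for Zfp608. Of these 7 genes, 5 lie on proximal chromosome 17.

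Zfp677, in the run of copies on proximal chromosome 17, had 10.20 and 9.92 in late cells and 5.66 and 6.22 in pre cells (adjusted p = 1.28e-05). Zfp955b, in the second group of that region, had 11.20 and 11.34 in late cells and 6.77 and 6.86 in pre cells (adjusted p = 4.97e-05). Zfp952, of the same group, had 6.94 and 7.43 in late cells, against 3.40 and 2.65 in pre cells. With means of 2.68 in t12 and 2.65 in Ttf sorted cells, it passed the filter through the late arrays. Its values are therefore given with no test, although the counts of genes called higher include it. Zfp952 was near background in the pre cells, so the size of its rise is less certain than that of Zfp677 or Zfp955b.

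The falls furthest from 0 were larger than the rises. Zfp280b had 1.99 and 1.68 in late cells against 10.005 and 9.90 in pre cells (log2 difference -8.12 ± 0.38 SE, adjusted p = 8.79e-07). Zfp740 had 2.20 and 2.24 in late cells against 8.77 and 9.30 in pre cells (log2 difference -6.82 ± 0.35 SE, adjusted p = 1.49e-06). Zfp623 had 2.23 and 2.26 in late cells against 7.68 and 8.08 in pre cells (log2 difference -5.63 ± 0.33 SE, adjusted p = 2.40e-06). In late cells these 3 genes lay at the bottom of the scale, near array background. Of the 38 genes that fell, 12 had a mean under 4 in late cells, where the true size of the fall is uncertain. Zfp36, which encodes tristetraprolin, a protein that directs mRNA decay, had 2.93 and 2.97 in late cells and 7.81 and 7.03 in pre cells (log2 difference -4.48 ± 0.45 SE, adjusted p = 4.74e-05). Other falls had log2 differences of -4.90 for Zfp229, -4.45 for Zfp292, -3.83 for Zfp1 and -3.82 for Zfp655.

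**Figure D1:**
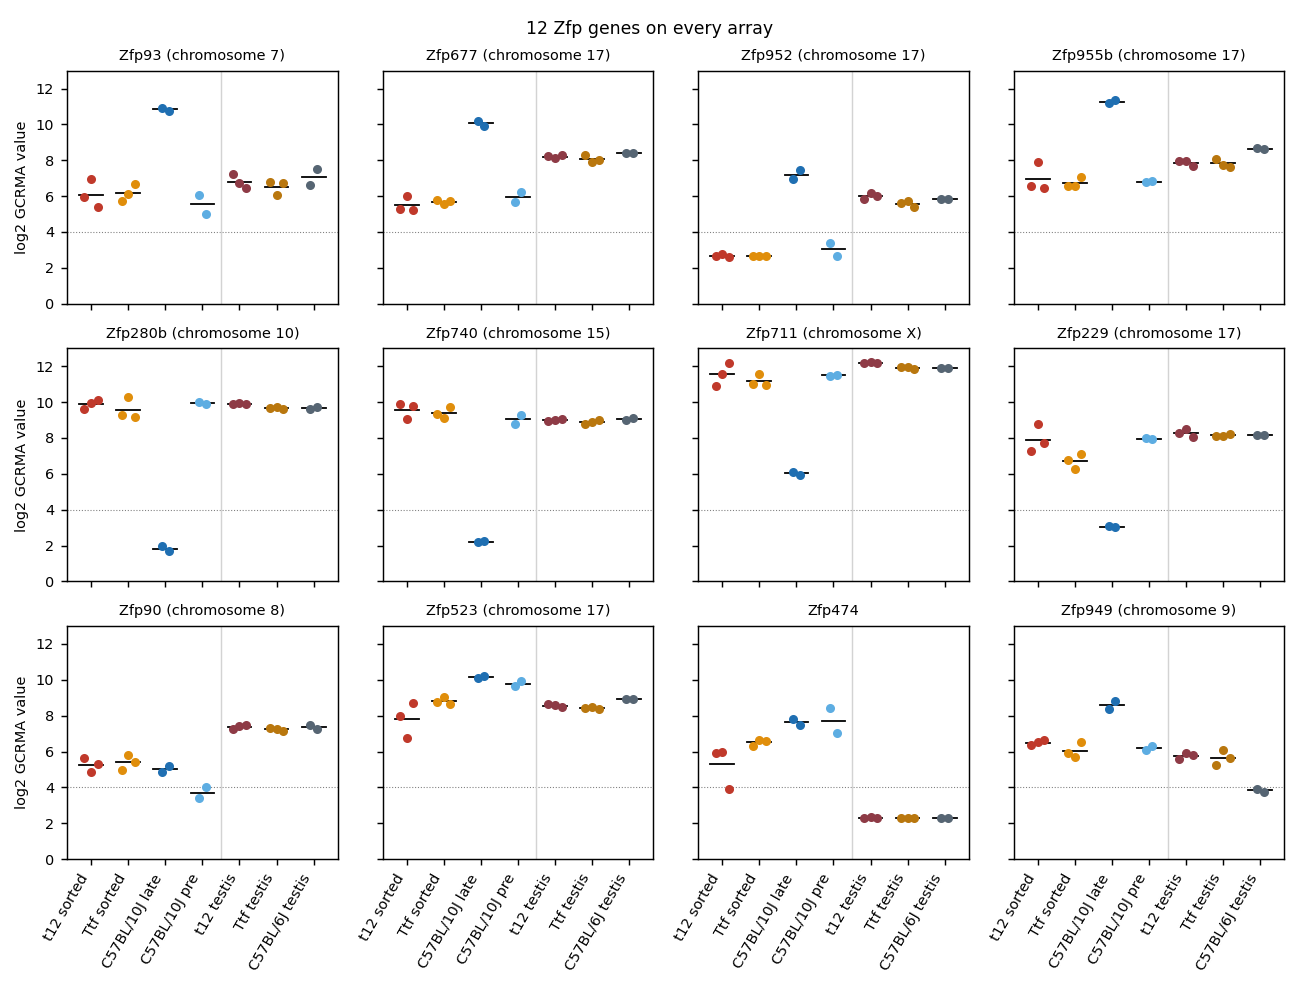
Log2 GCRMA value (vertical axis) of 12 Zfp genes on each array, by group (horizontal axis); points are arrays, black bars are group means, and the dotted line marks the level rule of 4. The top row shows 4 genes high in late cells and the middle row 4 genes low there, genes picked by that difference.

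The promoters of the risers Zfp93, Zfp677, Zfp952 and Zfp955b are shown because these genes were among the 10 highest rises and their windows hold matches to known promoter motifs. Each stretch is the 250 bases before the first listed start of the gene (RefSeq, GRCm38.p6), on the plus strand, and was read for 3 motifs on both strands. ACTACAATT holds core letters of the element bound by human ZNF143 and by its relative ZNF76, whose mouse counterpart is Zfp523. CAGTTG is a core of the MYB element, through which A-MYB (Mybl1) drives pachytene genes, and CCAAT is the element of NF-Y. Capitals mark matches to any of the 3 motifs on either strand. The windows are chr7:24270168-24270417 for Zfp93, chr17:21383498-21383747 for Zfp677, chr17:32992889-32993138 for Zfp952 and chr17:33289294-33289543 for Zfp955b.
Zfp93: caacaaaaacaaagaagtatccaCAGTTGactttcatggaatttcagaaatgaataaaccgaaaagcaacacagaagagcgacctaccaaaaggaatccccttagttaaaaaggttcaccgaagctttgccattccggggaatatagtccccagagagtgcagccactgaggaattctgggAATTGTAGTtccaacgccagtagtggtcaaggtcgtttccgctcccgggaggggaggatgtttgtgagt
Zfp677: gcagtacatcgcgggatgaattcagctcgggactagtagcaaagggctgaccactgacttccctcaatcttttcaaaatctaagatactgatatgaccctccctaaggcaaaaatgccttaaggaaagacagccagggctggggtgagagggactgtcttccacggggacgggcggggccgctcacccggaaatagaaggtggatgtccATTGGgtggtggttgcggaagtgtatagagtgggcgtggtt
Zfp952: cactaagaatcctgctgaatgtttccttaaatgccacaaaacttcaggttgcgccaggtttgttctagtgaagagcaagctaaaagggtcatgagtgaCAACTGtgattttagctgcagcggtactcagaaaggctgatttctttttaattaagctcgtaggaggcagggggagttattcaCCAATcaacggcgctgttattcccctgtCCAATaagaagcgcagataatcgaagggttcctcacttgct
Zfp955b: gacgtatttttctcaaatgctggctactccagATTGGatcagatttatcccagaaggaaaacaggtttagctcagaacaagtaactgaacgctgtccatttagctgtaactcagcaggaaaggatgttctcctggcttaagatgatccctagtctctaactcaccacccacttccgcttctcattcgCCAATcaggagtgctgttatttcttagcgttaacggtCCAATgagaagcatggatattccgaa

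In these windows Zfp93 holds an ACTACAATT match on the minus strand, with its first base 69 bases before the start, and a CAGTTG match 227 bases before it. Zfp677 holds 1 CCAAT match 41 bases before the start, on the minus strand. Zfp952 and Zfp955b each hold a pair of CCAAT matches on the plus strand close to the start, at 69 and 41 bases in Zfp952 and at 63 and 26 bases in Zfp955b. Zfp952 also holds a CAGTTG match on the minus strand 152 bases before the start, and Zfp955b a further CCAAT match on the minus strand 218 bases before it. Over the 300-base windows of the table (250 before and 50 after the start), 158 of the 195 Zfp genes had an entry. ACTACAATT was present in 5 of them (3.16%), against 0.577% of 17492 protein-coding genes. The 5 were Zfp1, Zfp128, Zfp180, Zfp692 and Zfp93, of which Zfp93, Zfp128 and Zfp180 were called higher and Zfp1 and Zfp692 lower in late cells. CAGTTG was present in 13.9% of the Zfp genes and 14.2% of protein-coding genes, and CCAAT in 48.7% and 42.3%. Among the Zfp genes called higher in late cells, 17.6% of 51 held CAGTTG and 49% held CCAAT, against 19.4% and 38.7% of 31 genes called lower. A match here is a string of letters and not a shown binding site.

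By position, all calls on the X were falls, while proximal chromosome 17 held more rises than falls. None of the 6 X-linked members was called higher in late cells and 4 were called lower, while 216 of 295 other X-linked genes were called lower. Zfp711 had 6.12 and 5.92 in late cells and 11.46 and 11.53 in pre cells (log2 difference -5.48 ± 0.40 SE, adjusted p = 8.39e-06). Zfp275 had 2.60 and 2.62 in late cells and 6.39 and 6.17 in pre cells (log2 difference -3.67 ± 0.40 SE, adjusted p = 7.21e-05). Zfp280c and Zfp449 were also called lower, with log2 differences of -4.11 and -1.87. Zfp182 (difference 0.54) and Zfp185 (-0.78) were not called and averaged under 5 in both groups.

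On proximal chromosome 17, 11 of 22 members were called higher (50%) and 4 lower in late cells, against 30.7% called higher and 26% lower of 254 other genes of that region. The 11 include Zfp952, which passed the filter through the late arrays. Zfp994 and Zfp40, also among the 11, averaged under 4 in t12 and Ttf sorted cells too. In the run from Zfp160 to Zfp40, Zfp677, Zfp54 and Zfp51, which are adjacent, rose together with Zfp942, Zfp943, Zfp994, Zfp944 and Zfp40, and Zfp229, Zfp758 and Zfp946 fell. Log2 differences in this run were 2.24 for Zfp942, 1.88 for Zfp943, 1.75 for Zfp994, 2.34 for Zfp944, -1.32 for Zfp758, -2.86 for Zfp946 and 1.37 for Zfp40. In the second group Zfp472, Zfp952 and Zfp955b rose, and Zfp871, which stands between the groups, fell by 3.47. Genes of the run thus went in opposite directions: Zfp229 was 3.09 and 3.03 in late cells and 7.98 and 7.94 in pre cells, while Zfp51 was 9.70 and 9.07 in late cells and 4.95 and 4.61 in pre cells. On chromosome 7, the chromosome with the most members, 17 of 39 members were higher and 3 lower, while of 672 other genes there 197 were higher and 172 lower. The difference between members and other genes of a chromosome was not tested.

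**Figure D2:**
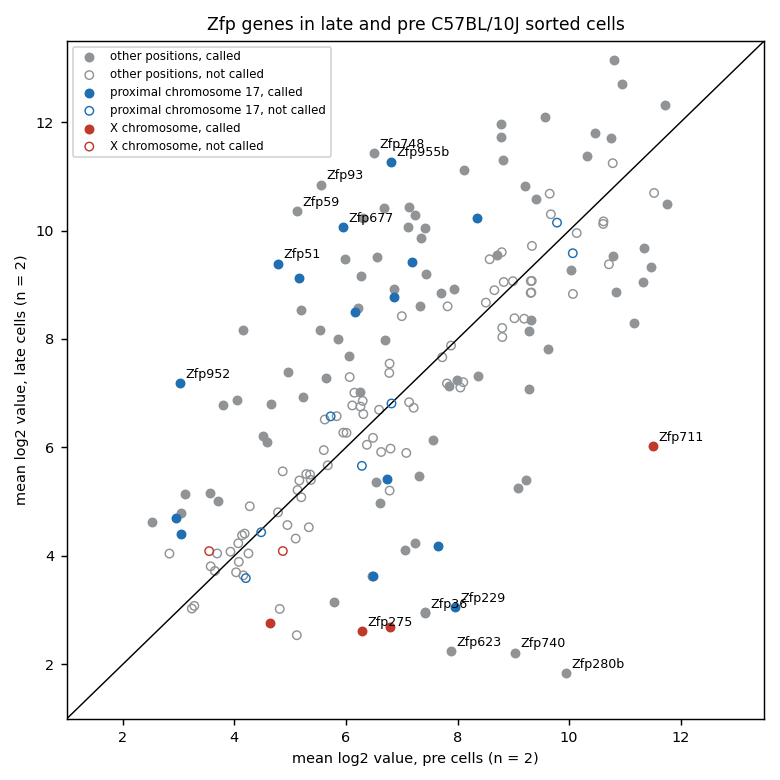
Mean log2 value in late cells (vertical axis) against pre cells (horizontal axis), with 2 arrays a group, for the 193 Zfp genes tested; filled points were called and colour gives the position. Points of proximal chromosome 17 lie mostly above the diagonal and called points of the X lie below it.

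**Figure D3:**
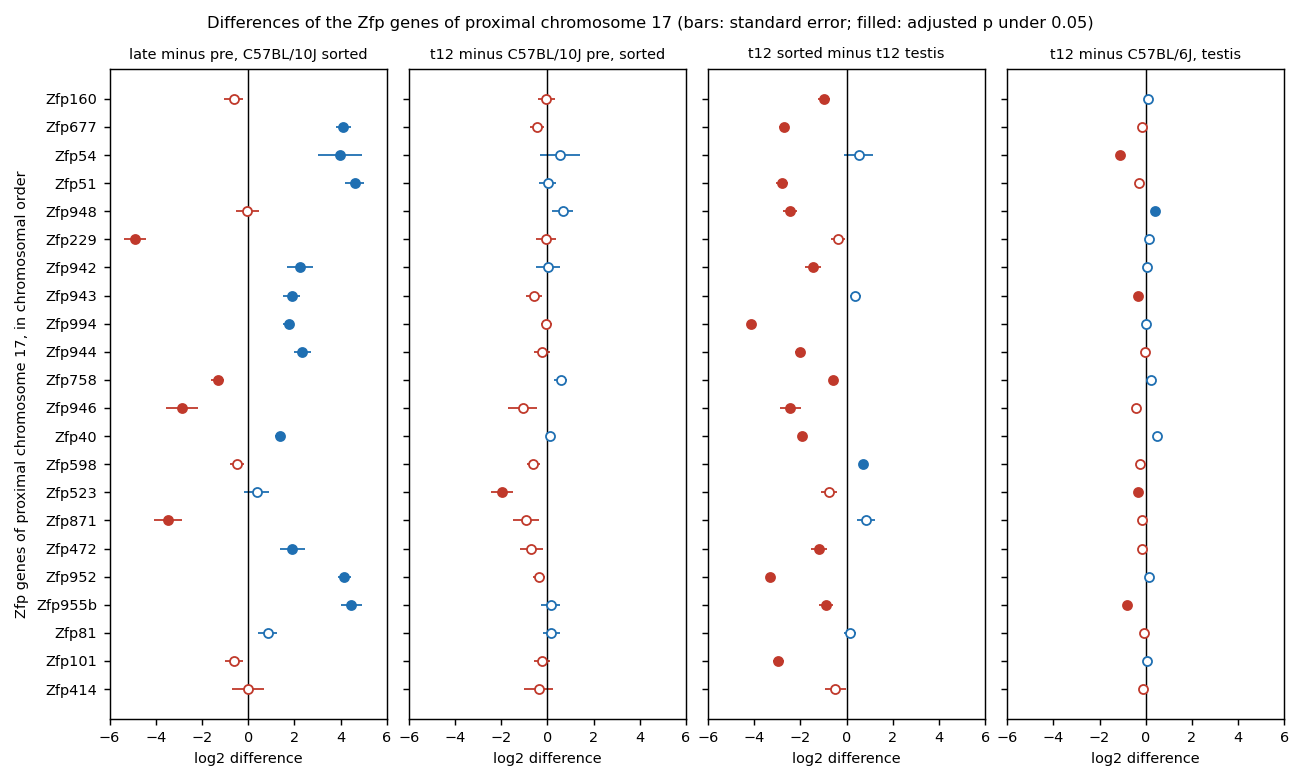
Log2 differences (horizontal axis, with bars of 1 standard error) of the 22 Zfp genes of proximal chromosome 17 in chromosomal order from top to bottom, in 4 comparisons; filled points were called. The late minus pre panel holds 11 called rises and 4 called falls, and the t12 minus pre panel holds 1 called gene, Zfp523.

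By role, 9 of 10 genes of a list of germ cell genes were tested, and 4 rose in late cells, 1 fell and 4 were not called (median difference 1.03), while 26.2% of all genes tested were called higher and 30.3% lower. Besides Zfp59, Zfp35, known for expression in mouse pachytene spermatocytes, averaged 11.72 in late and 8.78 in pre cells. Zfp105 differed by 1.34 and Zfp318, which encodes a cofactor of the androgen receptor, by 1.06. Zfp148 differed by -1.42 and was called lower. Zfp541, a subunit of a histone deacetylase complex needed for exit from pachytene, averaged 10.68 in late cells and 9.65 in pre cells and was not called (adjusted p = 0.141). The adjusted p of Zfp105 reached 0.0728 without pre replicate 2 and lay above 0.05 without either late array too, that of Zfp318 lay between 0.0875 and 0.139 without each of the 4 arrays in turn, and that of Zfp148 was 0.0519 without late replicate 2.

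Of the list for imprints and retroelements 3 genes were tested. Zfp809, which silences integrated murine leukaemia virus, averaged 9.85 in late cells and 7.34 in pre cells (log2 difference 2.52 ± 0.62 SE, adjusted p = 0.00747). Zfp445, which guards imprints, and Zfp568, a repressor of a placental Igf2 transcript, were not called, at differences of -0.49 and -0.52. Of 12 genes with roles in RNA, 4 fell and 2 rose, while 30.3% of all genes tested were called lower and 26.2% higher, so the count that fell is near that of all genes. Those that fell were Zfp36, Zfp106, an RNA-binding protein, Zfp326, which acts in splicing with RNA polymerase, and Zfp622, a ribosome maturation factor. The last 3 had differences of -2.21 for Zfp106, -2.14 for Zfp326 and -1.98 for Zfp622. Zfp346, which binds double-stranded RNA, and the splicing factor Zfp830 were called higher, by 1.14 and 1.28, the call of Zfp346 being lost without pre replicate 1 or late replicate 2 (adjusted p = 0.0519 and 0.0693).

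Of 15 broad regulators, 3 rose and 5 fell, against 26.2% of all genes tested called higher and 30.3% called lower, so the count that fell is near that of all genes here too. The falls were those of Zfp711, Zfp292, Zfp410, an activator of the chromatin remodeller gene Chd4, Zfp451 and Zfp687, with differences of -1.81 for Zfp410, -1.67 for Zfp451 and -0.72 for Zfp687. Zfp592, Zfp91 and Zfp384 were called higher, by 1.29, 0.94 and 0.60. The calls of Zfp91 and Zfp384 were lost without any 1 of the 4 arrays (adjusted p between 0.0658 and 0.204), that of Zfp592 without late replicate 2 (0.0847) and that of Zfp687 without 3 of the arrays. The same held for Zfp449 on the X without any 1 array (0.0643 to 0.0988), for Zfp946 without pre replicate 2 (0.0576) and for Zfp472 without late replicate 1 or either pre array (0.0615 to 0.0874).

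Partners of the KRAB proteins, none of them Zfp genes, were tested in 19 genes, of which 6 were lower and 1 higher in late cells (median difference -0.28). The count lower is near the 30.3% of all genes tested that were called lower, and 26.2% were called higher. The remodeller Smarcad1 differed by -5.97, the histone deacetylase Hdac2 by -3.06, the DNA methyltransferase Dnmt3b by -3.85 and Pphln1, a subunit of the HUSH silencing complex, by -1.87. Trim28 itself averaged 12.64 in late and 12.92 in pre cells and was not called (adjusted p = 0.525). Dnmt3a, Setdb1 and Atf7ip were the other partners called, at differences of -2.61, -0.84 and 0.83. Their calls did not survive leaving out single arrays: Dnmt3a reached 0.0502 and 0.0639 without pre replicate 2 and late replicate 2, and Setdb1 and Atf7ip reached 0.0965 and 0.107 without pre replicate 1 and were lost without each other array as well.

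Between 74 and 82 Zfp genes were called between late and pre cells when 1 of the 4 arrays was left out, against 102 with all of them.

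In the sorted cells of the carriers, few single Zfp genes passed the test against the pre cells of C57BL/10J, but most values lay on the higher side. Both carrier comparisons share the 2 pre arrays, so they are given side by side. In t12 cells 1 Zfp gene was higher and 2 lower, of 193 tested, while 9.07% of all genes tested were called either way (3.24% higher and 5.83% lower). In Ttf cells 1 was higher and none lower, and 2.06% of all genes tested were called (0.59% higher, 1.47% lower). In limma, 29 of 193 members in the t12 comparison and 23 in the Ttf comparison had an unadjusted p under 0.05. Over all 9666 genes tested the counts were 2133 and 1731, a larger share than among the Zfp genes in both. Markers of mid-late pachytene averaged 8.84 in t12, 10.64 in Ttf and 11.32 in pre cells, and their part in these differences was not tested.

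Zfp90, which encodes a KRAB zinc finger protein, was the gene called higher. It had 5.65, 4.87 and 5.30 in t12 and 4.98, 5.79 and 5.40 in Ttf cells, against 3.39 and 4.04 in pre cells. The difference was 1.56 ± 0.34 SE in t12 (adjusted p = 0.0257) and 1.68 ± 0.34 SE in Ttf cells (adjusted p = 0.0496). All 6 carrier arrays lay above both pre arrays, which sat near the level rule of 4. Late cells, at 4.83 and 5.20, lay near the carriers.

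Zfp523, on proximal chromosome 17, had 7.97, 6.74 and 8.70 in t12 and 8.74, 9.03 and 8.66 in Ttf cells, against 9.63 and 9.93 in pre cells. It was called lower in t12 (log2 difference -1.98 ± 0.48 SE, adjusted p = 0.0383) and not in Ttf cells (log2 difference -0.97, adjusted p = 0.340). All carrier arrays lay below both pre arrays, and t12 replicate 2 was the lowest. The difference between t12 and Ttf in Zfp523 was -1.01 and not called (adjusted p = 0.474).

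Zfp474 had 5.91, 5.99 and 3.94 in t12 and 6.30, 6.66 and 6.60 in Ttf cells, against 8.43 and 7.03 in pre cells. It was called lower in t12 (log2 difference -2.45 ± 0.63 SE, adjusted p = 0.0476), not in Ttf cells (difference -1.21, adjusted p = 0.368). In testes at 15 days, where the 8 spermatid markers averaged 2.32 in t12, 2.32 in Ttf and 2.31 in C57BL/6J, Zfp474 lay between 2.28 and 2.34 on all 8 arrays. The spermatid markers in the sorted cells went with Zfp474: they averaged 5.62 in t12, 10.08 in Ttf and 11.59 in pre cells, and all 8 had a mean of at least 4 in Ttf and pre cells and 6 in t12 cells. Their part in the difference of Zfp474 was not tested.

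Across the whole family, 143 of 193 differences between t12 and pre cells were above 0 (74.1%), with a median of 0.31, against 55.2% and a median of 0.06 over all genes tested. For Ttf against pre cells 126 were above 0 (65.3%) with a median of 0.16, against 50.7% and 0.01. All 6 carrier arrays lay above both pre arrays for 37 Zfp genes (19.2%), against 13.3% of all genes tested, and below both for 3 genes, Zfp523, Zfp474 and Zfp207 (1.55%), against 13.7%. The set of all genes tested can hold genes with a median under 4, which the rule of the Zfp genes leaves out. The part of this unlike rule in these shares was not tested. Among the 37 were Zfp90, Zfp335, which acts with histone H3 methyltransferases, Zfp428, Zfp938 and Zfp397. Zfp335 had 8.24, 6.999 and 8.04 in t12 and 7.89, 8.44 and 7.41 in Ttf cells, against 6.15 and 6.37 in pre cells, and missed the threshold (adjusted p = 0.0739 in t12 and 0.0947 in Ttf). Its neighbours in rank, Zfp428 (difference 2.04 in Ttf) and Zfp938 (1.09 in Ttf), also missed it. Without t12 replicate 2, Zfp335 was called in t12 (adjusted p = 0.0148).

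The mean over the Zfp genes minus the mean over the other genes that passed the filter was between -0.32 and -0.25 on the 3 t12 arrays. It was between -0.55 and -0.33 on the 3 Ttf arrays, against -0.62 and -0.57 on the 2 pre arrays. The filter, here that of the fit of sorted cells against testes, asks for a log2 value of 4 on at least 2 arrays. The Zfp genes had to reach a median of 4. The part of these unlike rules in the values was not tested. The 2 late arrays stood highest, at -0.13 and -0.18. Neither the 3 t12 arrays nor the 3 Ttf arrays overlapped with the pre arrays, though Ttf replicate 2 (-0.55) lay close to pre replicate 2 (-0.57). Probe sets for the 3' and 5' ends of Gapdh differed by 3.74 in t12, 3.53 in Ttf, 2.95 in late and 2.90 in pre cells on average, against values near 0 in the testes. Those of actin differed by 3.53 in t12, 3.57 in Ttf, 3.44 in late and 2.50 in pre cells, against 1.16 to 1.24 in the testes. The part of these differences in the shift was not tested.

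**Figure D4:**
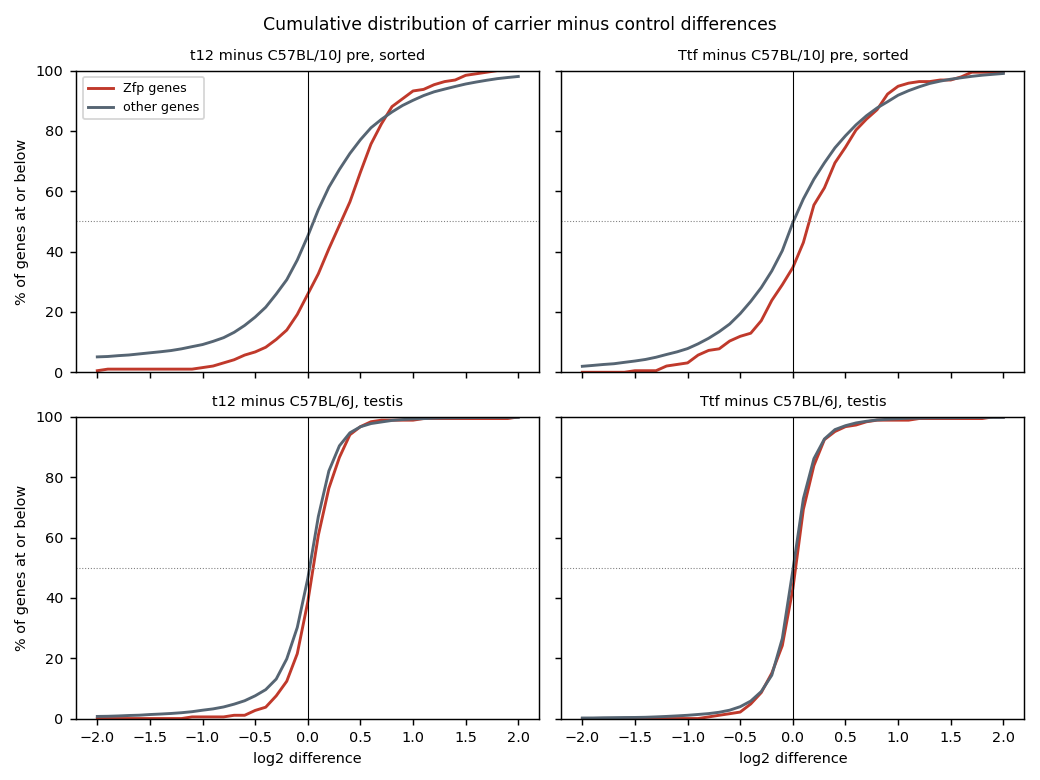
Percentage of genes (vertical axis) with a log2 difference at or below the value on the horizontal axis, for Zfp genes and all other genes tested, in 4 carrier minus control comparisons. In sorted cells the Zfp curve lies to the right of the other genes around 0, with 74.1% of t12 and 65.3% of Ttf differences above 0, and in testes the curves lie close together.

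The 64 genes called higher in late cells had median group means of 6.72 in t12, 6.70 in Ttf, 9.18 in late and 6.41 in pre cells. The 38 genes called lower had medians of 8.67 in t12, 8.65 in Ttf, 5.41 in late and 7.98 in pre cells. In the testes the first set had medians of 7.13 in t12, 7.20 in Ttf and 7.16 in C57BL/6J, and the second 8.70, 8.64 and 8.51. Both sets were chosen on the late and pre arrays, so nothing is read from where the carriers lie between these groups. Zfp93, for example, had 5.95, 6.95 and 5.37 in t12 and 5.75, 6.15 and 6.66 in Ttf cells, and Zfp677 had 5.27, 5.99 and 5.21 in t12 and 5.81, 5.56 and 5.72 in Ttf cells.

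By position, the proximal chromosome 17 members had medians below 0. Their median difference was -0.14 in t12 and -0.01 in Ttf against pre cells, and 8 and 11 of 22 were above 0. The other genes of proximal chromosome 17 were lower still, at medians of -0.54 and -0.19, with 55 of 254 called lower in t12 and 17 in Ttf, whereas Zfp523 alone of the 22 members was called. The 4 members of chromosome 16 and the 6 of the X gave no calls in either carrier. Zfp275 on the X had 6.89, 7.44 and 8.27 in t12 and 6.62, 6.32 and 6.51 in Ttf cells, against 6.39 and 6.17 in pre cells, and its difference in t12 was not called (adjusted p = 0.0710). The 3 t12 arrays differed widely among themselves in this gene, with replicate 3 the highest, and without t12 replicate 1 the gene was called (adjusted p = 0.0291).

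None of the role lists held a called gene in either carrier against pre cells. The median differences in t12 and Ttf were 0.23 and 0.18 over the germ cell list, 0.17 and 0.19 over the RNA list and 0.48 and 0.46 over the broad regulators. Of the 19 silencing partners only Daxx, a histone chaperone gene that itself lies on proximal chromosome 17, was called. It averaged 10.44 in t12 and 10.56 in Ttf cells and 11.75 in pre cells, with differences of -1.31 (adjusted p = 0.00833) and -1.19 (adjusted p = 0.0346). Without 1 pre array its adjusted p was 0.0638 or 0.101 in t12 and 0.270 or 0.294 in Ttf cells, and it also passed 0.05 in Ttf cells without Ttf replicate 1 (0.137) or 3 (0.0586).

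These counts depended on single arrays. For t12 against pre cells the count was 13 without t12 replicate 2, 1 without t12 replicate 1 and 0 without pre replicate 1 or pre replicate 2, and for Ttf it was 0 without any 1 of its 5 arrays. An alternative was chosen after seeing the data, without Ttf replicate 2 and t12 replicate 2, the arrays with the lowest correlations to their groups. There 42 members were called in t12 (39 higher, 3 lower) and 28 in Ttf (24 higher, 4 lower). The share of all genes called was not taken there, so nothing is read from these counts. No call of Zfp90, Zfp523 or Zfp474 survived leaving out each array in turn, with adjusted p up to 0.421 for Zfp90 without pre replicate 1 in Ttf, 0.242 for Zfp523 without pre replicate 2 and 0.379 for Zfp474 without pre replicate 1 in t12.

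Between the carriers, no Zfp gene was called in sorted cells. In limma 0 of 193 passed the threshold, and 0.755% of all genes tested were called (0.0621% higher, 0.693% lower). An unadjusted p under 0.05 was found for 7 members, and for 987 of all 9666 genes tested. Among those 7 were Zfp275 (log2 difference 1.05, adjusted p = 0.252) and Zfp229, a member of the run on proximal chromosome 17 (1.19, adjusted p = 0.279). Zfp229 had 7.25, 8.78 and 7.70 in t12 and 6.79, 6.26 and 7.09 in Ttf cells. Every t12 array lay above every Ttf array in both genes, and the t12 arrays were more spread than the Ttf arrays. Over the family 120 of 193 differences were above 0 (62.2%; 56.5% of all genes tested), with a median of 0.10 against 0.05.

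**Figure D5:**
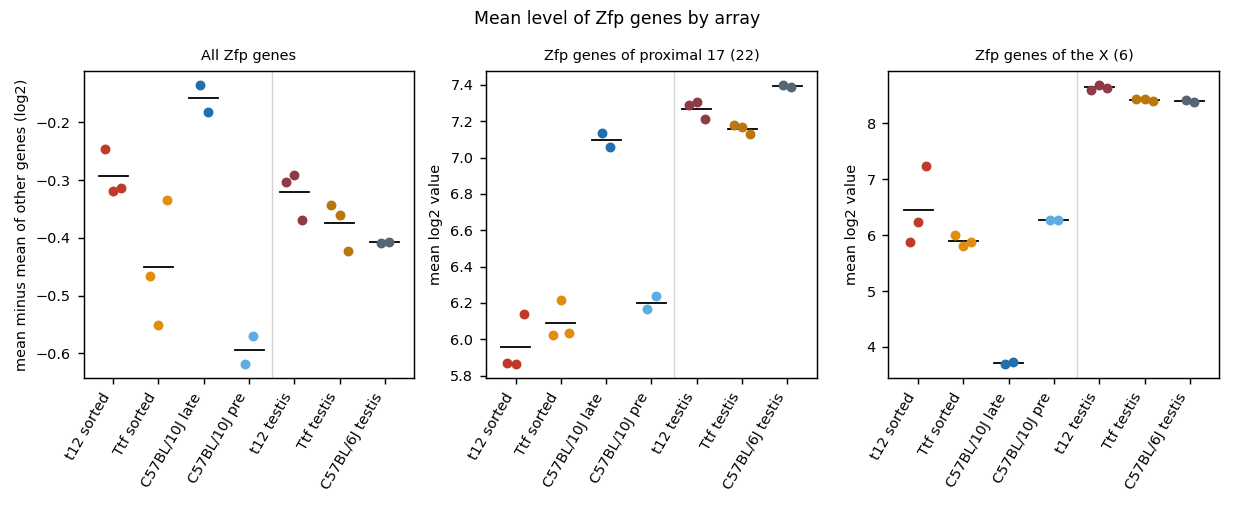
By array and group (horizontal axis), the left panel shows the mean over all Zfp genes minus that of the other genes passing the filter. The others show the mean log2 value of the 22 Zfp genes of proximal chromosome 17 (middle) and of the 6 of the X (right). Points are arrays and bars group means. The X panel shows the late cells between 3.69 and 3.73, the other sorted arrays between 5.81 and 7.23 and the testes between 8.39 and 8.69.

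In testes at 15 days the differences were small, and the replicates were close enough for small differences to pass. Against C57BL/6J testes, 20 Zfp genes were higher and 11 lower in t12 of 186 tested, while 21.8% of all genes tested were called (10.5% higher, 11.3% lower). In Ttf testes 7 were higher and 12 lower, while 8.56% of all genes tested were called (3.86% higher, 4.7% lower). Among the Zfp genes 16.7% were called in t12 (10.8% higher, 5.91% lower) and 10.2% in Ttf (3.76% higher, 6.45% lower). The shares called higher were near those of all genes. The share called lower was below that of all genes in t12 and above it in Ttf, which was not tested. Both comparisons share the 2 C57BL/6J arrays. The 7 markers of mid-late pachytene averaged 6.03 in t12, 6.81 in Ttf and 7.36 in C57BL/6J testes. Of these, 3 had a mean of at least 4 in t12 and in Ttf testes and 5 in C57BL/6J testes. The Leydig markers averaged 6.12, 6.39 and 7.82 in the same order. The part of both marker lists in these differences was not tested. All 6 carrier arrays lay above both C57BL/6J arrays for 36 Zfp genes (19.4%), against 15.6% of all genes tested, and below both for 22 (11.8%), against 14.2%.

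Zfp949 differed most. It had 5.60, 5.92 and 5.82 in t12 and 5.23, 6.11 and 5.62 in Ttf testes, against 3.92 and 3.77 in C57BL/6J testes. The difference was 1.94 ± 0.23 SE in t12 (adjusted p = 0.00225) and 1.81 ± 0.23 SE in Ttf (adjusted p = 0.00562). In sorted cells, where carriers and controls share the C57BL/10J background, it was 6.49 in t12, 6.05 in Ttf and 6.21 in pre cells on average, without a call in either carrier, and 8.58 in late cells.

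Zfp473, which binds the histone mRNA processing machinery in human cells, had 6.85, 6.64 and 6.86 in t12 and 6.69, 6.42 and 6.34 in Ttf testes, against 5.80 and 5.66 in C57BL/6J testes (adjusted p = 0.00190 in t12 and 0.0120 in Ttf). Zfp263 on chromosome 16 had 9.63, 9.77 and 9.61 in t12 and 9.76, 9.66 and 9.55 in Ttf testes, against 10.31 and 10.22 in C57BL/6J testes (adjusted p = 0.00352 and 0.00593). Zfp593, a ribosome assembly factor, was lower in both, by differences of -0.50 in t12 and -0.50 in Ttf testes. In these 4 genes the carriers' arrays did not overlap with the controls.

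On proximal chromosome 17, Zfp523 averaged 8.57 in t12, 8.44 in Ttf and 8.92 in C57BL/6J testes (adjusted p = 0.00673 and 0.00432). Zfp54 had 5.39, 5.06 and 5.12 in t12 and 5.78, 5.62 and 5.21 in Ttf testes, against 6.26 and 6.39 in C57BL/6J testes (-1.13 ± 0.17 SE in t12). Zfp955b had 7.95, 7.97 and 7.66 in t12 and 8.07, 7.75 and 7.65 in Ttf testes, against 8.69 and 8.62 in C57BL/6J testes (-0.80 ± 0.14 SE in t12). Zfp943 was also lower in both carriers, with differences of -0.35 in t12 and -0.38 in Ttf testes. Of the 22 members of the region 4 were lower and 1 higher in t12, and 5 lower and none higher in Ttf testes. The other genes of the region were called lower in 40.1% of 252 in t12 and in 28.2% in Ttf. Zfp944 was lower in Ttf testes (difference -0.42), and Zfp948 was higher in t12 testes (0.40).

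Other called genes differed less. In t12 against C57BL/6J testes, Zfp182 on the X differed by 0.60, Zfp704 by 0.58, Zfp979 by 0.43, Zfp672 by 0.42, Zfp451 by 0.35, and Zfp654 and Zfp148 on chromosome 16 by 0.34 and 0.30. Of the 6 X-linked members, Zfp182 and Zfp711 (0.28) were called higher in t12 testes, as were 80 of 310 other X-linked genes. Of 8 germ cell genes tested, Zfp105 (0.19) and Zfp148 were called, both higher in t12 testes, and none was called in Ttf testes. Of the 19 silencing partners 5 were higher and 1 lower in t12 testes, and 1 higher and 1 lower in Ttf testes, against the 10.5% and 11.3% of all genes in t12 and the 3.86% and 4.7% in Ttf. The 5 were Dnmt3b (0.29), Smarcad1 (0.28), Pphln1 (0.25), Morc3, a gene for silencing of retroelements (0.21), and Atf7ip, a cofactor of Setdb1 (0.38). Atf7ip was also the one called higher in Ttf (0.44, adjusted p = 0.0404). Daxx was the one called lower, by differences of -0.30 in t12 and -0.36 in Ttf. Without C57BL/6J replicate 1 all 6 lost their call in t12 (adjusted p = 0.115 to 0.229), and without either C57BL/6J array Atf7ip and Daxx lost it in Ttf (adjusted p = 0.113 to 0.200).

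The 2 control arrays carried much of these counts. Without C57BL/6J replicate 1 the t12 comparison called 8 members and without replicate 2 16, and the Ttf comparison called 3 and 2. The Ttf count was 12 and 10 without Ttf replicates 1 and 2. Of the Zfp genes named here, Zfp473, Zfp949, Zfp593, Zfp263, Zfp948 and Zfp54 kept their call in t12 when any 1 array was left out, and Zfp523 alone kept it in Ttf. The others lost it without 1 of the C57BL/6J arrays (adjusted p between 0.0506 and 0.245), or without a carrier array as well in some.

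Between t12 and Ttf testes, 5 Zfp genes were called higher in t12 and 3 lower, of 186 tested, while 4.99% of all genes tested were called (1.07% higher, 3.92% lower). Genes of the run on proximal chromosome 17 led the rises. Zfp948 had 7.58, 7.61 and 7.58 in t12 and 7.17, 7.27 and 7.23 in Ttf testes (log2 difference 0.37 ± 0.050 SE, adjusted p = 0.0299). Zfp944 had 7.88, 7.90 and 7.998 in t12 and 7.64, 7.51 and 7.53 in Ttf testes (log2 difference 0.37 ± 0.054 SE, adjusted p = 0.0299). Zfp711 on the X had 12.16, 12.22 and 12.15 in t12 and 11.95, 11.94 and 11.87 in Ttf testes (log2 difference 0.26 ± 0.044 SE, adjusted p = 0.0365). The arrays of the 2 carriers did not overlap in these genes, although the differences were under 0.4. Zfp979 (0.34) and Zfp280b (0.24) were also higher.

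Zfp784 was lower in t12, with 3.93, 3.64 and 3.77 in t12 and 5.38, 5.16 and 4.44 in Ttf testes (log2 difference -1.21 ± 0.23 SE, adjusted p = 0.0398). Its t12 values were near those of C57BL/6J testes (3.94 and 3.80), and Ttf testes were called higher than C57BL/6J (difference 1.12). It is also the gene just inside the level rule. Zfp41 (-0.34) and Zfp771 (-0.35) were the other falls. In late cells Zfp41 averaged 11.13, against 8.11 in pre cells. The mean of 7 markers of mid-late pachytene was 6.03 in t12 and 6.81 in Ttf testes, with 3 of the 7 at a mean of at least 4 in each. The part of these markers in the differences was not tested.

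Over the family 127 of 186 differences between t12 and Ttf testes were above 0 (68.3%, against 56.4% of all genes tested), with a median of 0.05. All 6 X-linked members were above 0, with a median of 0.22, as were 298 of 310 other X-linked genes, with a median of 0.17. On proximal chromosome 17, 17 of 22 members were above 0 (median 0.12), against 48% of 252 other genes of the region (median -0.01). With quantile normalization the split of calls was 6 higher and 1 lower. The count was 0 without Ttf replicate 1, Ttf replicate 2, t12 replicate 2 or t12 replicate 3, 3 without t12 replicate 1, and 17 without Ttf replicate 3.

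Sorted cells and whole testes of the same carrier differ in age, in the cells present and in RNA preparation, and these cannot be told apart. Of 195 genes tested, 77 were higher and 68 lower in t12 sorted cells than in t12 testes, while 73.3% of all genes tested were called (41.6% higher, 31.7% lower). In Ttf 65 were higher and 68 lower, while 71.1% of all genes tested were called (40.1% higher, 31% lower). Of the 195 genes, 9 did not pass the filter on the testis arrays and 2 did not on the sorted arrays. These counts can therefore include genes that passed only through the tissue where they are high. The Zfp genes were called in like share, 74.4% in t12 and 68.2% in Ttf, and their median differences, 0.07 and 0.03, lay below the 0.25 and 0.23 of all genes.

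The genes lower in sorted cells included the X-linked members. Zfp449 had 3.51, 3.58 and 5.46 in sorted t12 cells, against 8.09, 8.24 and 8.39 in t12 testes (log2 difference -4.06 ± 0.37 SE, adjusted p = 2.74e-07), and 3.58, 3.45 and 3.55 in sorted Ttf cells, against 8.06, 8.09 and 8.08 in Ttf testes (log2 difference -4.55 ± 0.37 SE, adjusted p = 8.12e-08). Zfp275 had 6.89, 7.44 and 8.27 in sorted t12 cells, against 10.93, 10.98 and 11.16 in t12 testes (adjusted p = 2.12e-08), and differed by -4.36 in Ttf (adjusted p = 1.89e-09). All 6 X-linked members were called lower in t12 and 5 of 6 in Ttf, against 57% and 56.4% of 342 other X-linked genes. Zfp711 differed by -0.63 and -0.74 only, and its call was lost without single arrays of either carrier (adjusted p up to 0.193 without t12 sorted replicate 1), as was that of Zfp185 in t12 (difference -0.58, adjusted p = 0.107 without t12 sorted replicate 1).

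On proximal chromosome 17, 14 of 22 members were lower in t12 sorted cells (63.6%, against 39% of 290 other genes of the region) and 12 in Ttf (54.5%, against 34.5%), while 1 and 2 were higher. Zfp994 had 2.90, 3.01 and 2.82 in sorted t12 cells, against 7.10, 7.09 and 6.90 in t12 testes (log2 difference -4.12 ± 0.16 SE, adjusted p = 3.88e-11). It had 2.93, 3.40 and 2.90 in sorted Ttf cells, against 6.75, 7.09 and 7.17 in Ttf testes. The sorted cells were thus near background for a gene that stood near 7 in the testes. Zfp952, Zfp677 and Zfp51, which rise in late cells, also lay lower in the sorted carriers than in their testes: Zfp952 averaged 2.68 in sorted t12 cells and 6.00 in t12 testes. The difference between the regions' Zfp genes and their neighbours was not tested.

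Further genes lower in sorted cells included Zfp36l1, an mRNA decay factor related to Zfp36, with differences of -3.50 in t12 and -3.42 in Ttf, Zfp703, a corepressor (-3.13 and -3.24), Zfp462, a chromatin regulator (-4.01 and -3.63), Zfp704 (-3.84 and -3.81), Zfp385b (-3.57 and -3.58) and Zfp958 (-3.89 and -3.79). Markers of Sertoli cells went the same way: they averaged 6.63 in sorted t12 cells and 9.63 in t12 testes, and 6.01 in sorted Ttf cells and 9.49 in Ttf testes, with 4 of 6 on the array at a mean of at least 4 in either sorted group and 5 of 6 in the testes. Macrophage markers averaged 3.18 in sorted t12 cells and 6.35 in t12 testes. The mean of the Leydig markers went the other way, at 8.92 in sorted t12 cells and 6.12 in t12 testes, and 7.40 in sorted Ttf cells and 6.39 in Ttf testes. The single Leydig markers were split. Ptgds was 10.51 in sorted t12 cells and 2.08 in t12 testes, and 8.70 and 2.05 in Ttf, and Cyp17a1 was also higher in sorted cells. Hsd3b1 was lower there, at 8.18 against 9.95 in t12 and 5.81 against 9.84 in Ttf. Star was lower in sorted Ttf cells, at 5.19 against 6.37, and higher in sorted t12 cells. Their part in these differences was not tested.

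Zfp628, Zfp691 and Zfp646 were below the filter in testes and passed only through the sorted arrays, so their values are given with no test. Zfp628, a gene needed in mouse spermatids, had 6.52, 6.58 and 6.53 in sorted t12 cells, against 2.36, 2.37 and 2.36 in t12 testes, and 6.52, 6.69 and 6.53 in sorted Ttf cells, against 2.37, 2.35 and 2.35 in Ttf testes. Zfp691 had 5.64, 6.25 and 5.12 in sorted t12 cells, against 1.54, 1.55 and 1.59 in t12 testes. Zfp646 averaged 6.74 in sorted t12 cells and 2.88 in t12 testes. In C57BL/10J cells Zfp628 averaged 6.61 in late and 6.31 in pre cells, and Zfp646 7.68 and 6.05.

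Among the genes called higher in sorted cells with a mean of at least 4 on both sides, Zfp346 differed by 3.33 in t12 and 3.36 in Ttf and Zfp507 by 3.89 and 3.33. Zfp385a, which acts in mRNA translation and as a p53 cofactor, differed by 4.17 and 4.06. Their means in t12 and Ttf testes were near that level, at 4.28 and 4.26 for Zfp346, 4.71 and 4.72 for Zfp507, and 4.25 and 4.46 for Zfp385a. The size of these differences is uncertain to that degree. Of 9 germ cell genes 6 were higher and 2 lower in sorted cells of both carriers, beside 41.6% of all genes called higher and 31.7% lower in t12 and 40.1% and 31% in Ttf. The 6 include Zfp628, which passed the filter only through the sorted arrays and is not read as tested. Zfp541 differed by 1.54 in t12 and 1.41 in Ttf, Zfp37, known from mouse spermatids, by 2.04 and 1.83, and Zfp42, the pluripotency marker Rex1, by 1.87 and 0.98. The call of Zfp42 in Ttf was lost without Ttf sorted replicate 3 (adjusted p = 0.0632) or Ttf testis replicate 3 (0.0583).

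Of the 3 imprint and retroelement genes, Zfp445 was higher in sorted cells, by 2.36 in t12 and 2.33 in Ttf. Zfp809 was called lower in sorted cells of both carriers, with differences of -1.01 in t12 (adjusted p = 0.0342) and -1.01 in Ttf (adjusted p = 0.0362), and lost its call in each carrier without any 1 of the 3 testis arrays and without sorted replicate 1 or 3 (adjusted p up to 0.170 in t12). Zfp568 was called higher in Ttf (0.55, adjusted p = 0.0128) and not in t12 (0.19). Silencing partners were higher in sorted cells in 13 of 19 genes in t12 and 12 in Ttf, and lower in 3 and 2, while 41.6% and 40.1% of all genes tested were called higher and 31.7% and 31% lower. The heterochromatin protein gene Cbx1 differed by 3.26 in t12 and 2.79 in Ttf, Trim28 by 1.13 and 1.12, and Setdb1 by 1.04 and 1.14.

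The contrast of t12 against Ttf was not shown to differ between sorted cells and testes for any Zfp gene. In limma 0 of 195 passed the test of the difference between the tissues, and 0.734% of all genes tested were called (0.0659% higher, 0.668% lower). An unadjusted p under 0.05 was found for 7 members, and for 812 of all 10623 genes tested. Zfp101, of the second group on proximal chromosome 17, averaged 3.98 in t12 and 4.72 in Ttf sorted cells, and 6.93 in t12 and 6.55 in Ttf testes. Its difference of differences was -1.13 ± 0.35 SE (adjusted p = 0.242). For Zfp944, called in the testes, it was -0.79 ± 0.32 SE (adjusted p = 0.544). Without Ttf sorted replicate 3, 1 member was called.

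Of the 109 Zfp genes under the level rule, 46 reached 4 on at least 2 arrays and 15 had a mean of at least 6 in some group, so the rule leaves out some genes that were high in only part of the samples. Among the 46 was Zfp790, at 1.92 in sorted t12 and 1.86 in sorted Ttf cells, against 5.98 in t12 and 5.69 in Ttf testes. It was picked after its values were seen.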

How the data were processed

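RNA of 18 samples in 7 groups was hybridised to 1-colour Affymetrix arrays, after a labelling in 2 cycles for the small amounts from sorted cells, per the labels' protocols. The authors deposited log2 values after GCRMA, per the submitters' processing notes, with 1 probe set per Entrez gene. The version of that program, and which arrays were normalised together, is not given in the sources used here, and precision is limited by how many arrays there are.

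Of 16539 probe sets, 15780 had 1 gene symbol. Genes that reached a log2 value of 4 on at least 2 arrays of a fit were tested with limma 3.58.1 (lmFit and eBayes) in R 4.3.3, with Benjamini-Hochberg adjustment over all such genes. Fits used 10 sorted-cell arrays (9666 genes), 8 testis arrays (9134) or, for sorted cells against testes, all 18 (10623). The test was tested on simulated data. Named genes were the 10 largest rises and falls called per comparison with no overlap of arrays, genes of chromosomes 16, 17 and X, the highest and lowest levels, and genes of the role and partner lists. Zfp1, Zfp128, Zfp180, Zfp692, Zfp90, Zfp335, Zfp428, Zfp938, Zfp397, Zfp207 and Zfp790 were named, where no such part covers them, after their values were seen. Members and lists were chosen with earlier results of these data known. Alternatives were the filter, quantile normalization, array weights, a replicate block and each array left out. Same-numbered samples deviated together (r of 0.134, 0.101 and 0.220) in t12 sorted cells against t12 testes, where the blocked count was the same, 145. In the testes r was 0.455, 0.020 and 0.660 for t12 against Ttf. It was 0.298 and 0.135 for Ttf and 0.196 and -0.058 for t12 against C57BL/6J testes. The labels do not say whether a number marks a shared animal, litter or batch. Groups by protein structure were not used here.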

Additional observations from a re-analysis of the deposited data

How the results depend on the processing

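Counts are of Zfp genes called by limma, and shares over all genes were not taken in the changed settings. When each array was left out in turn, counts ran from 74 to 82 for late against pre cells, 0 to 0 for t12 against Ttf sorted cells, 0 to 0 for Ttf and 0 to 13 for t12 against pre cells, 0 to 17 for t12 against Ttf testes, 2 to 20 for Ttf and 8 to 32 for t12 against C57BL/6J testes, 119 to 151 for Ttf and 136 to 147 for t12 sorted cells against testes, and 0 to 1 for the difference between tissues. Array weights, whose estimation did not converge in the 10-array and 18-array fits, gave 60 for t12 against Ttf sorted cells, 95 for Ttf and 88 for t12 against pre cells, 36 for t12 against Ttf testes, 47 for Ttf and 50 for t12 against C57BL/6J testes, and 84 for the difference between tissues. A replicate block gave 0 for Ttf and 0 for t12 against pre cells, 26 for t12 against Ttf testes, and 41 for Ttf and 51 for t12 against C57BL/6J testes. The unblocked counts for these testis comparisons were 8, 19 and 31 in that order. Same-numbered samples had r of 0.004 and 0.040 for Ttf and -0.188 and -0.217 for t12 against pre cells. In t12 against Ttf testes r ran from 0.020 to 0.660. Whether a number marks a shared batch is not known, so both counts are given. Without a filter the counts were 0 for Ttf and 1 for t12 against pre cells and 3 for t12 against Ttf testes. With a filter at 6, or with quantile normalization, Ttf against pre cells gave 0. The last settings were chosen after seeing the data. Without the arrays of lowest correlation (replicate 2 of t12 and of Ttf sorted cells) the counts were 1 for t12 against Ttf sorted cells, 42 for t12 and 28 for Ttf against pre cells, and 5 for the difference between tissues. Without t12 sorted replicate 3, whose X mean stood apart in its group, and Ttf sorted replicate 2 together they were 8 for t12 and 3 for Ttf against pre cells. Zfp185 in t12 sorted cells against testes changed sign with quantile normalization (log2 difference 0.074, adjusted p = 0.736). Zfp568 in the same comparison, not called, ran from -0.020 (without t12 sorted replicate 1, a change of sign) to 0.33 when each array was left out. For these changes the cause was not tested. Values near 2 are at array background, where the size of a difference is uncertain.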
